A study of Saccharomyces cerevisiae with 12 samples.

Results

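A set of 10 genes of budding yeast (*Saccharomyces cerevisiae*) that reduce protein disulfides or remove peroxide in the cytosol are described here across 6 mRNA libraries. They were chosen by gene name, as TRX1, TRX2, TRR1, TSA1, TSA2, AHP1, GRX1, GRX2, GRX8 and CTT1, and are 10 of the 6347 features of the deposited table. Thioredoxins are small proteins that reduce disulfides in other proteins and are themselves reduced by thioredoxin reductase with NADPH. Peroxiredoxins break down hydrogen peroxide and organic peroxides and draw their electrons from thioredoxin, glutaredoxins do related work with electrons from glutathione, and catalase splits hydrogen peroxide without any such donor. In yeast many of these genes answer to the transcription factors Yap1, Skn7, Msn2 and Msn4 when peroxide or other stress rises.

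Both strains were engineered from the laboratory strain D452-2 and carried the plasmid pRS316 with cdt-1, the gene of a cellodextrin transporter from the fungus *Neurospora crassa*, in the deposited table described as tagged with GFP at its C-terminus. NC denotes the strain whose transgene has the endogenous codons, and OPT the strain whose transgene was codon-optimized. No strain without a cdt-1 plasmid was analysed here, so all 6 libraries come from cells that express the transporter. Cells were harvested in mid-exponential growth, and 3 biological replicates of each strain gave 3 NC and 3 OPT libraries of total RNA. The 6 libraries of ribosome footprints were not used here, so each value below is an mRNA level.

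Levels are RPKM, reads per kilobase of gene as normalized by the authors, who brought every library to almost the same total. The step between low values gave an estimate of 23400000 to 30500000 reads in NC and 33500000 to 43100000 in OPT, summed over the features with a RefSeq length. The NC libraries were less alike than the OPT libraries, with Pearson correlations across features of 0.979 to 0.992 against 0.991 to 0.996, and NC replicate 3 had the 2 lower values in NC. Among features that averaged 20 RPKM or more, the median coefficient of variation was 8.7% in NC and 4.8% in OPT. Of 5982 features tested with limma, 71.9% of the calls were lower in OPT on the deposited scale and 51.0% once library medians were set equal.

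All 10 genes were above the filter of a mean of 1 RPKM and were tested. At an adjusted p under 0.05, GRX8 rose in OPT and TSA1 fell, which makes 2 of 10 against 19.1% of all features tested. By direction the background was 5.38% higher and 13.8% lower. The median log2 fold change of the 10 was 0.10, where the median over all features was -0.06. Without NC replicate 1 the median of the 10 was -0.09, below that of all features, and without NC replicate 2 it was 0.21. NC and OPT did not overlap in 5 of the 10, against 40.7% of all features. AHP1 and GRX8 were the 2 higher in OPT (background 13.1%) and TRX1, TRR1 and TSA1 the 3 lower (background 27.6%). The share of genes called or separated was thus close to that of the whole table. The 10 genes were chosen with earlier results of these data known, so these shares and medians are described only and were not tested. Together the 10 genes held 1.22 to 1.54% of all RPKM in NC and 1.24 to 1.40% in OPT, ranges that overlap.

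**Figure D1:**
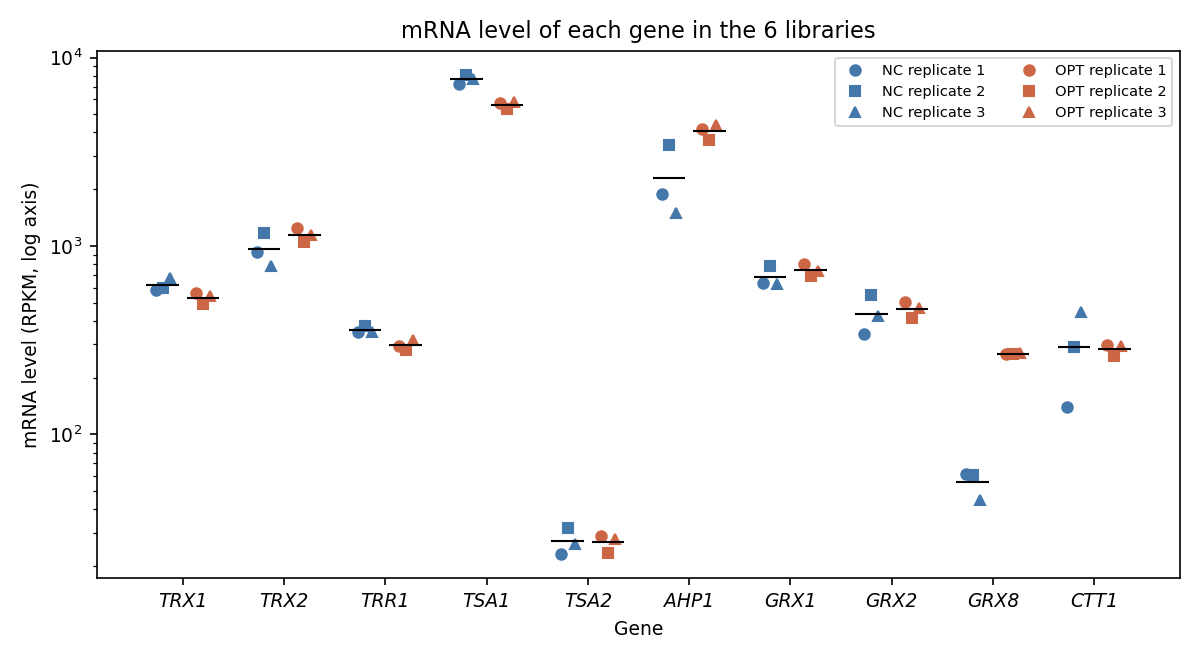
mRNA level in RPKM on a log axis for each of the 10 genes, with NC libraries in blue, OPT libraries in orange, a marker shape per replicate and a black line at each strain's mean of 3. GRX8 stands at 44.6 to 61.5 RPKM in NC and 266 to 270 in OPT, and AHP1 and CTT1 have NC libraries that lie far from each other.

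The levels covered a wide range. TSA1 was the most abundant of the 10 in every library, ranking between the 7th and the 20th highest feature of the table, and AHP1 came second, between the 25th and the 72nd. TRX2 followed in both strains, above TRX1 and GRX1. In NC the ranges of TRX1 and GRX1 overlapped, at 582 to 678 and 627 to 784 RPKM, whereas in OPT GRX1 lay above TRX1, at 693 to 803 against 490 to 561. By mean level GRX2 and TRR1 came next. Their ranges overlapped in NC and were separate in OPT, where GRX2 stood at 416 to 502 RPKM and TRR1 at 280 to 316. The range of CTT1 was 140 to 445 RPKM in NC and 259 to 297 in OPT. It overlapped that of TRR1 in both strains and that of GRX2 in NC. GRX8 in OPT reached the range of CTT1, at 266 to 270 against 259 to 297 RPKM, and in NC it lay below the lowest CTT1 value of 140. TSA2 was the least abundant in every library, on an estimated 418 to 770 reads, and stood above only 30.9% of all features by mean level.

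Neither gene of the thioredoxin pair was called by the test. TRX1 (YLR043C, chromosome XII, 231702 to 232013 in build R64) encodes one of the 2 cytosolic thioredoxins and stood at 582, 601 and 678 RPKM in NC replicates 1 to 3 and at 561, 490 and 543 in OPT. All 3 OPT values lay below the lowest NC value, by a small gap. The log2 difference (OPT minus NC) was -0.22, SE 0.09 (limma adjusted p = 0.141), with an unadjusted 95% interval of -0.44 to -0.0019. TRX2 (YGR209C, chromosome VII, 912913 to 913227) encodes the other and is the member of the pair known to be induced by Yap1 under peroxide. It stood at 924, 1168 and 786 RPKM in NC and at 1243, 1053 and 1138 in OPT. NC replicate 2 lay inside the OPT range and the other NC libraries below it, and the log2 difference was 0.27, SE 0.15 (adjusted p = 0.257), with a 95% interval of -0.09 to 0.63. The TRX2 difference was 0.14 without NC replicate 3 and 0.42 without NC replicate 2, again short of the threshold.

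The ratio of TRX2 to TRX1 did not overlap between strains, although neither gene was called. The NC libraries gave ratios of 1.59, 1.94 and 1.16, the OPT libraries 2.22, 2.15 and 2.10, so TRX2 was the more abundant in all 6 libraries and more so in each OPT library than in any NC library. TRX2 held 60.4 ± 6.22% of the summed thioredoxin mRNA in NC and 68.3 ± 0.611% in OPT (SD, n = 3). Between strains the log2 ratio differed by 0.49 (two-sided exact permutation p = 0.1, adjusted over 3 paralog pairs p = 0.15), and a test of 3 against 3 cannot go below 0.1. The difference moved between 0.29 and 0.67 when single libraries were left out, the lower value without NC replicate 3, in which TRX1 was highest and TRX2 lowest of the NC libraries. The genes are paralogs of similar sequence, and the sources used here do not say how reads that match both were assigned.

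TRR1 (YDR353W, chromosome IV, 1183299 to 1184258) encodes the cytosolic thioredoxin reductase, which passes electrons from NADPH to both thioredoxins. It stood at 348, 376 and 348 RPKM in NC and at 294, 280 and 316 in OPT. Every OPT value was below every NC value, with a coefficient of variation of 4.55% in NC and 6.04% in OPT. The log2 difference of -0.27 (SE 0.08) missed the threshold narrowly at an adjusted p of 0.051 by limma. It passed in 6 of 14 alternative fits, one of which left out NC replicate 3, with adjusted p from 0.0273 to 0.196 over all 14.

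**Figure D2:**
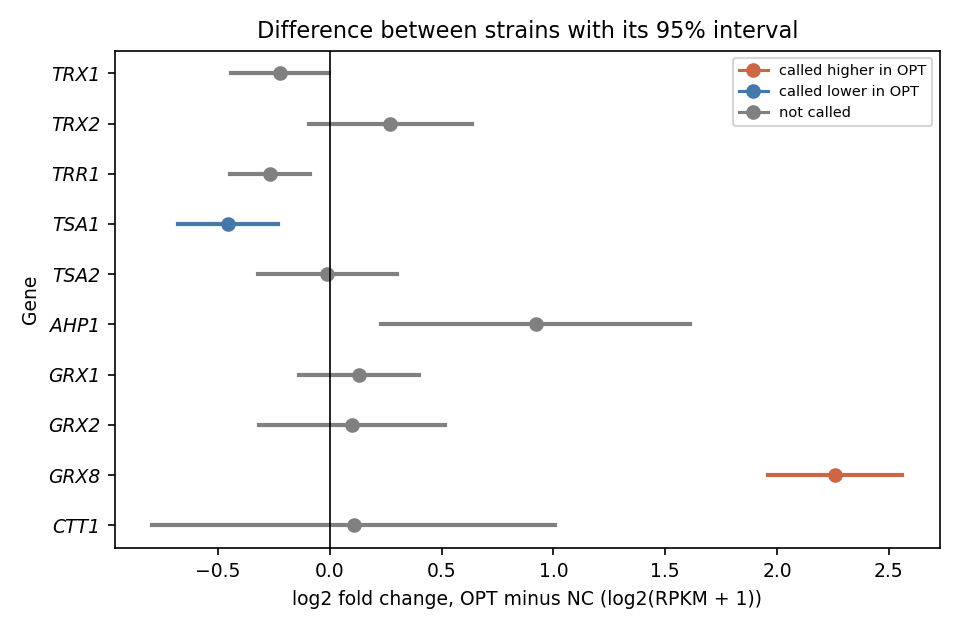
Log2 fold change of each gene, OPT minus NC on the log2(RPKM + 1) scale, as a point with limma's 95% interval as a line, for 3 libraries per strain. GRX8 at 2.26 is coloured as called higher and TSA1 at -0.45 as called lower, the interval of AHP1 runs from 0.23 to 1.61, and that of CTT1 is the widest, from -0.79 to 1.01.

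Of the 2 abundant peroxiredoxin mRNAs, TSA1 was called lower in OPT. AHP1 had a difference of the opposite sign and was not called. TSA1 (YML028W, chromosome XIII, 220138 to 220728) encodes the main thioredoxin-dependent peroxidase of the cytosol, which also acts as a chaperone. It stood at 7247, 8107 and 7674 RPKM in NC and at 5711, 5301 and 5793 in OPT, with a wide gap between the strains. It fell by 0.45 on the log2 scale (SE 0.09, limma adjusted p = 0.0198), from 7676 ± 430 to 5601 ± 264 RPKM (SD, n = 3), or to 0.730 of the NC level. The call ended when any OPT library was left out (adjusted p = 0.0681 to 0.113), while the size stayed between -0.49 and -0.39 in all alternatives. Calls over all features also dropped in those fits, from 1145 to 483, 361 and 525 without OPT replicates 1, 2 and 3.

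AHP1 (YLR109W, chromosome XII, 368781 to 369311) encodes a peroxiredoxin that prefers alkyl hydroperoxides. It stood at 1897, 3450 and 1501 RPKM in NC and at 4193, 3631 and 4375 in OPT. All OPT values were higher than all NC values, but NC replicate 2 came close to OPT replicate 2, while the other NC libraries lay far below. The means were 2283 ± 1030 and 4067 ± 388 RPKM (SD, n = 3), a ratio of 1.78, and the log2 difference of 0.92 (SE 0.29) did not pass the test (adjusted p = 0.0684). Without NC replicate 2 it passed, at 1.26 with an adjusted p of 0.00787. In the other 13 of 14 alternative fits it did not pass, with an adjusted p up to 0.183. The smallest difference over all 14 was 0.62. The coefficient of variation of AHP1 in NC, 45.1%, was above that of 98.7% of features averaging 20 RPKM or more.

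TSA2 (YDR453C, chromosome IV, 1365072 to 1365662) is the stress-inducible paralog of TSA1. It stood at 23.2, 31.9 and 26.1 RPKM in NC and at 28.9, 23.5 and 27.7 in OPT. The strains overlapped throughout, the log2 difference was -0.01 with a 95% interval of -0.32 to 0.30 (adjusted p = 0.96), and its sign turned in 4 of 14 alternative fits. TSA1 mRNA exceeded TSA2 mRNA 254 to 313 times in NC and 197 to 225 times in OPT. The log2 ratio of TSA2 to TSA1 was 0.44 higher in OPT (two-sided exact permutation p = 0.1, the smallest possible, adjusted over 3 pairs p = 0.15), with no overlap between strains. It stayed between 0.38 and 0.53 with single libraries left out. TSA2 itself differed by -0.01 and TSA1 by -0.45, so the shift in the ratio largely repeats that of TSA1. With so large an excess of a similar sequence, the level of TSA2 is uncertain, since a small share of misassigned TSA1 reads would alter it.

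Summed over TSA1, TSA2 and AHP1, peroxiredoxin mRNA came to 9167, 11588 and 9201 RPKM in NC and to 9933, 8955 and 10196 in OPT, which overlap. The make-up of that sum did not overlap between strains. AHP1 held 20.7, 29.8 and 16.3% of it in NC and 42.2, 40.5 and 42.9% in OPT, and TSA1 held 77.5 ± 6.86% and 57.8 ± 1.22% (SD, n = 3). In ratio, TSA1 mRNA was 2.35 to 5.11 times AHP1 mRNA in NC and 1.32 to 1.46 times in OPT. These sums and shares are descriptions, with no test.

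**Figure D3:**
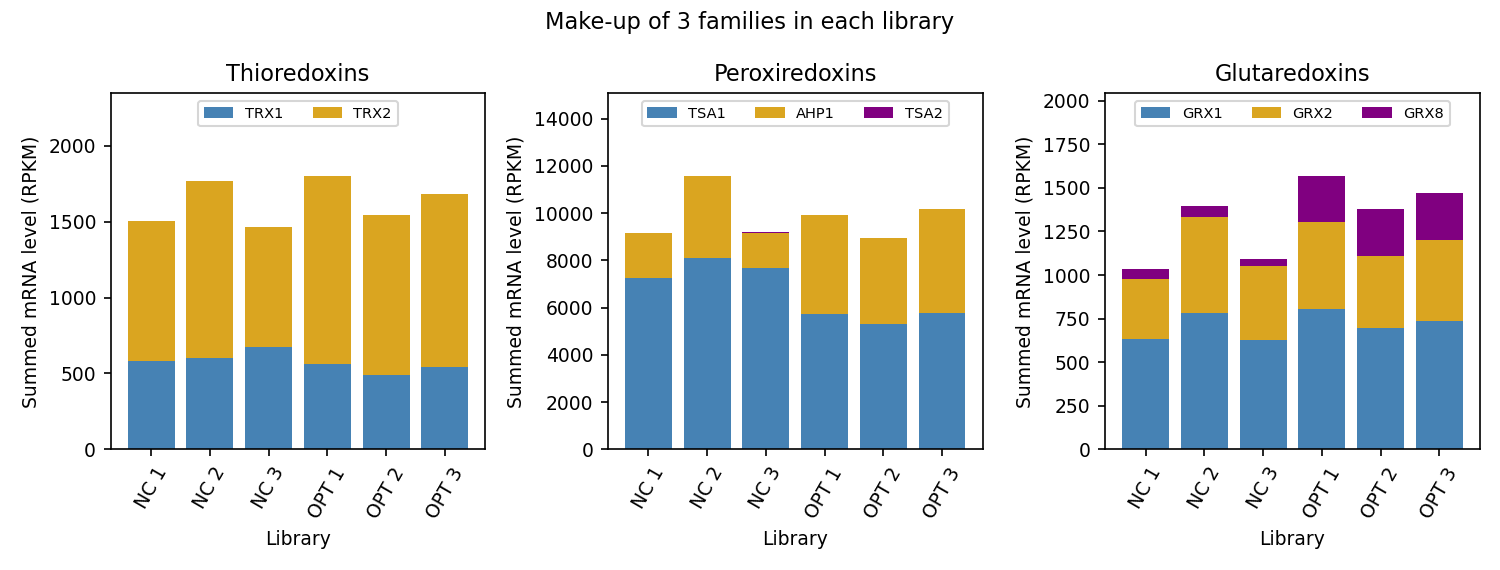
Summed mRNA level in RPKM of the thioredoxins, peroxiredoxins and glutaredoxins in each of the 6 libraries, as stacked bars with 1 colour per gene, each panel on its own axis from 0. The peroxiredoxin totals of the strains overlap while the AHP1 part is larger in each OPT library, and the GRX8 part is 4.08 to 5.94% of its total in NC and 16.9 to 19.4% in OPT. TSA2 is barely visible at this scale.

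Among the glutaredoxins, GRX8 alone passed the test. GRX8 (YLR364W, chromosome XII, 854062 to 854391) encodes a glutaredoxin with a dithiol active site and weak activity next to its better known relatives. It stood at 61.5, 61.0 and 44.6 RPKM in NC and at 266, 267 and 270 in OPT. The OPT libraries were almost equal, with a coefficient of variation of 0.732% against 17.2% in NC, and each was more than 4 times the highest NC value. GRX8 rose from 55.7 ± 9.61 to 268 ± 1.96 RPKM (SD, n = 3), a ratio of 4.80 and a log2 fold change of 2.26 and SE 0.13 (limma adjusted p = 0.000205). That was the 23rd highest log2 fold change of the 5982 features. The rise passed in all 14 alternative fits, at 2.11 to 2.34, with adjusted p between 9.37e-06 and 0.00394. The estimated number of reads behind it was 399 to 640 in NC and 3043 to 3952 in OPT. Its neighbour at lower coordinates, YLR363W-A, 344 nucleotides away, stood at 69.5 to 112 RPKM in NC and at 65.0 to 71.5 in OPT.

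GRX1 and GRX2, the main dithiol glutaredoxins, gave no call. GRX1 (YCL035C, chromosome III, 60841 to 61173) stood at 634, 784 and 627 RPKM in NC and at 803, 693 and 734 in OPT, a log2 difference of 0.13 (95% interval -0.14 to 0.40, adjusted p = 0.455) that lay between 0.07 without OPT replicate 1 or NC replicate 3 and 0.23 without NC replicate 2. GRX2 (YDR513W, chromosome IV, 1471017 to 1471448), of which mitochondria also hold a form, stood at 341, 549 and 422 RPKM in NC and at 502, 416 and 466 in OPT, a log2 difference of 0.10 (95% interval -0.32 to 0.51, adjusted p = 0.73). For both genes NC replicate 2 lay within or above the OPT range, and the strains overlapped. The annotated span of GRX2 overlaps that of EMI1, so some of its reads could belong to EMI1, which stood at 83.4 to 116 RPKM.

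The ratio of GRX1 to GRX2 overlapped between strains. GRX1 mRNA was 1.43 to 1.86 times GRX2 mRNA in NC and 1.58 to 1.67 times in OPT. The log2 ratio of GRX2 to GRX1 differed by -0.03 (two-sided exact permutation p = 0.9, adjusted over 3 pairs p = 0.9). Relative to GRX8, GRX1 mRNA was 10.3 to 14.0 times GRX8 in NC and 2.59 to 3.02 times in OPT. The 3 glutaredoxins summed to 1037 to 1394 RPKM in NC and to 1376 to 1571 in OPT.

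CTT1 (YGR088W, chromosome VII, 654634 to 656322) encodes the cytosolic catalase T and is a common reporter of Msn2 and Msn4 activity. It stood at 140, 291 and 445 RPKM in NC and at 297, 259 and 295 in OPT. NC replicate 1 was the lowest and NC replicate 3 the highest of the 6 libraries, and all OPT values lay between them. The means were close, at 292 ± 152 and 284 ± 21.4 RPKM (SD, n = 3), but the log2 difference of 0.11 had a 95% interval from -0.79 to 1.01 (adjusted p = 0.866), which takes in a fall as well as a rise. Without NC replicate 1 the sign turned, at -0.34 with an adjusted p of 0.252. The coefficient of variation in NC, 52.2%, was above that of 99.3% of those same features, and in OPT it was 7.54%.

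**Figure D4:**
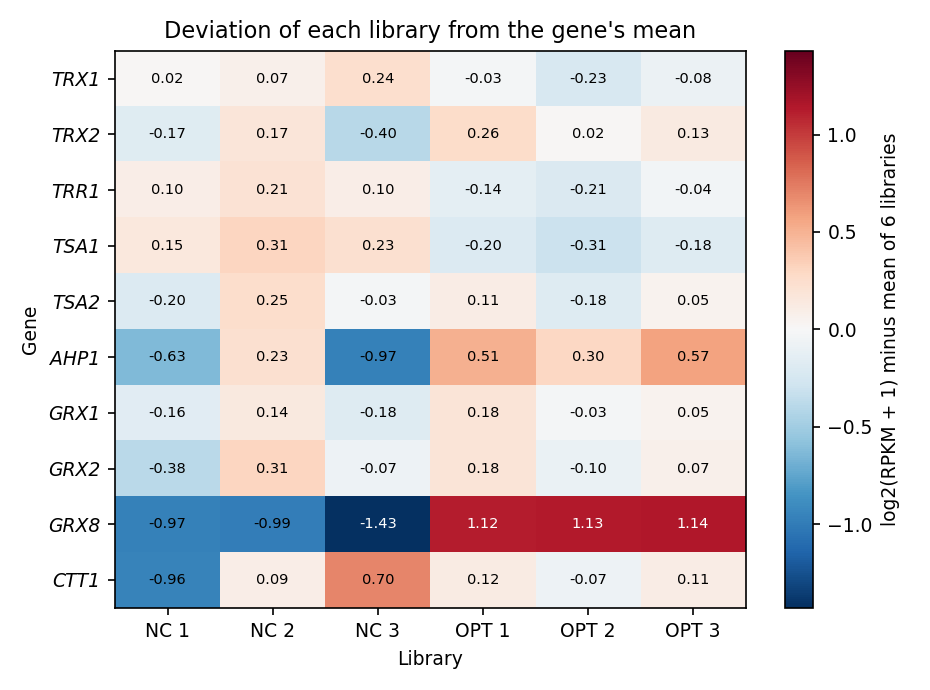
Log2(RPKM + 1) of each gene in each library minus the gene's mean over the 6 libraries, printed in the cell and coloured from blue, below the mean, to red, above it. AHP1 in NC runs from -0.97 to 0.23 and CTT1 from -0.96 to 0.70, while in OPT they run from 0.30 to 0.57 and from -0.07 to 0.12.

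The spread among NC libraries did not have one order for all genes. NC replicate 2 held the highest NC value in 7 of the 10 genes, TRX2, TRR1, TSA1, TSA2, AHP1, GRX1 and GRX2, against 42.3% of all features tested. TRX1 and CTT1 were highest in NC replicate 3 and GRX8 in NC replicate 1. In AHP1, TRX2 and GRX1 the other NC libraries lay below all OPT values, and in TRX2 and GRX1 NC replicate 2 lay among them. In OPT, replicate 2 held the lowest value in 9 of the 10 genes, against 40.6% of all features, and GRX8 was the exception. The coefficient of variation was smaller in OPT than in NC for 9 of the 10 genes, TRR1 being the exception. A smaller spread in OPT was general, with a median of 4.8% against 8.7% in NC among features averaging 20 RPKM or more. The share of all features with a smaller value in OPT was not counted. The order of NC libraries was noticed in these data, and its part in the results was not tested beyond leaving out each library.

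Across 7 lists of related genes, more genes were called higher than lower. Of their 50 genes, all tested, 16 rose and 3 fell, against 5.38% higher and 13.8% lower of all features. The lists were chosen with earlier results of these data known, so this excess is described only and was not tested. The median log2 fold change of the 50 genes was 0.27 where that of all features was -0.06. Without OPT replicate 1, 2 or 3, 8, 6 and 8 of the 50 rose and 1 fell. Calls over all features dropped as well in those fits, to 151, 134 and 186 higher and 332, 227 and 339 lower. Without NC replicate 3, 15 of the 50 were higher and 5 lower, beside 450 higher and 1503 lower over all features. One list holds enzymes that make NADPH, the electron source of both the thioredoxin and the glutathione branch, and 3 of its 7 genes rose and none fell. Its median was 0.64, but 0.28 without NC replicate 1. ZWF1, glucose-6-phosphate dehydrogenase, stood at 185 ± 37.0 RPKM in NC and rose to 348 ± 13.6 (log2 fold change 0.93, SE 0.14, adjusted p = 0.0076). GND1, the main 6-phosphogluconate dehydrogenase, rose from 283 ± 20.5 to 483 ± 50.5 (adjusted p = 0.00479). GND2, its minor isozyme, rose from 64.2 ± 33.1 to 139 ± 19.0 (adjusted p = 0.0404), but lost its call with no filter, without any 1 of the OPT libraries and without NC replicate 1 or 3 (adjusted p up to 0.125).

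In the rest of the thioredoxin system, 3 of 7 genes rose and none fell, against 5.38% higher and 13.8% lower of all features. The median was 0.44, and 1 to 5 genes were called higher without single libraries. TRR2, the mitochondrial thioredoxin reductase, rose from 49.4 ± 2.43 to 67.1 ± 2.20 RPKM (log2 fold change 0.44, adjusted p = 0.00652), whereas its cytosolic counterpart TRR1 had a negative difference. MXR1, a methionine sulfoxide reductase that uses thioredoxin, rose from 105 ± 20.8 to 178 ± 27.6 (adjusted p = 0.0242), and lost its call without OPT replicate 1 or 2. PRX1, the mitochondrial peroxiredoxin, rose from 287 ± 92.3 to 465 ± 33.5 (adjusted p = 0.0493). Its NC values of 229, 393 and 238 RPKM had the same high NC replicate 2 as AHP1, and its call ended in 8 of 14 alternatives, with adjusted p up to 0.152. SRX1, the sulfiredoxin that repairs overoxidized peroxiredoxins, did not pass, at 25.1, 42.8 and 27.8 RPKM in NC and 53.8, 41.7 and 52.9 in OPT (adjusted p = 0.0678), and passed with equal library medians and without NC replicate 2 (adjusted p = 0.0497 and 0.0146). SRX1 is named outside the rule for named genes, after its values were seen.

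Of 14 other glutathione-linked genes, 3 rose and none fell, against 5.38% higher and 13.8% lower of all features. Their median was 0.19. GTO1, an omega-class glutathione transferase of peroxisomes, stood at 30.1 ± 7.99 RPKM in NC and rose to 82.0 ± 6.65 (log2 fold change 1.44, SE 0.18, adjusted p = 0.00399). GPX1, a glutathione peroxidase, rose from 24.0 ± 4.68 to 38.2 ± 3.60 (adjusted p = 0.0248), and GTT2, a glutathione transferase, from 35.0 ± 0.895 to 42.6 ± 3.12 (adjusted p = 0.0374). The GPX1 call ended with no filter and without NC replicate 2 or any 1 of the OPT libraries and the GTT2 call without any 1 of the OPT libraries or NC replicate 1 or 2. None of the 5 monothiol glutaredoxins in the list, GRX3 to GRX7, passed, and their log2 differences lay between -0.21 and -0.06.

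In the list of catalase A, superoxide dismutases and cytochrome c peroxidase, 1 of 5 rose and none fell. Over all features 5.38% were higher and 13.8% lower. The list's median was 0.28, or 0.17 without NC replicate 3. The riser was CCP1, the mitochondrial cytochrome c peroxidase, from 170 ± 23.9 to 222 ± 6.85 RPKM (adjusted p = 0.0464), and lost its call without NC replicate 1 or any OPT library, with no filter and with a common prior variance. Among 5 regulators MSN4 rose, from 83.4 ± 5.06 to 108 ± 7.72 RPKM (log2 fold change 0.38, adjusted p = 0.0214), none fell, and the median was -0.06. The MSN4 call ended without OPT replicate 2 or 3. YAP1, the main peroxide-responsive transcription factor, stood at 88.0, 90.1 and 73.3 RPKM in NC and 91.7, 97.0 and 98.2 in OPT, which did not overlap but did not pass (log2 difference 0.19, adjusted p = 0.184, and a difference of 0.10 without NC replicate 3).

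Genes of the Yap1 list moved both ways, with 3 of 7 higher, 2 lower and a median of -0.20. Over all features 5.38% were higher and 13.8% lower, with a median of -0.06. FRM2 and HBN1 encode related nitroreductases and went in opposite directions. HBN1 rose from 44.4 ± 8.22 to 85.5 ± 12.1 RPKM (log2 fold change 0.94, adjusted p = 0.00968), and FRM2 fell by 1.27 on the log2 scale to 10.2 ± 0.416 RPKM (adjusted p = 0.00029). ATR1, a multidrug exporter, fell from 53.0 ± 4.97 to 38.7 ± 1.79 (adjusted p = 0.0149). Its call was lost without any 1 OPT library. A last list of 5 genes holds MET16, whose product draws on thioredoxin, and the subunits of ribonucleotide reductase, of which the large ones (RNR1 and RNR3) carry the disulfide that thioredoxin reduces and the small ones (RNR2 and RNR4) do not. Of these 5, 2 rose and 1 fell, with a median of 0.15, or 0.10 without NC replicate 3. MET16, which reduces activated sulfate to sulfite, rose from 98.8 ± 17.7 to 360 ± 42.3 RPKM (log2 fold change 1.86, adjusted p = 0.000863). Of the ribonucleotide reductase genes, RNR2 rose from 204 ± 14.9 to 277 ± 6.78 (adjusted p = 0.0105) and RNR1 fell from 242 ± 47.0 to 160 ± 5.13 (adjusted p = 0.0269). The RNR2 call ended without OPT replicate 2, and the RNR1 call without any 1 of the OPT libraries, without NC replicate 2 and with quantile normalization.

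**Figure D5:**
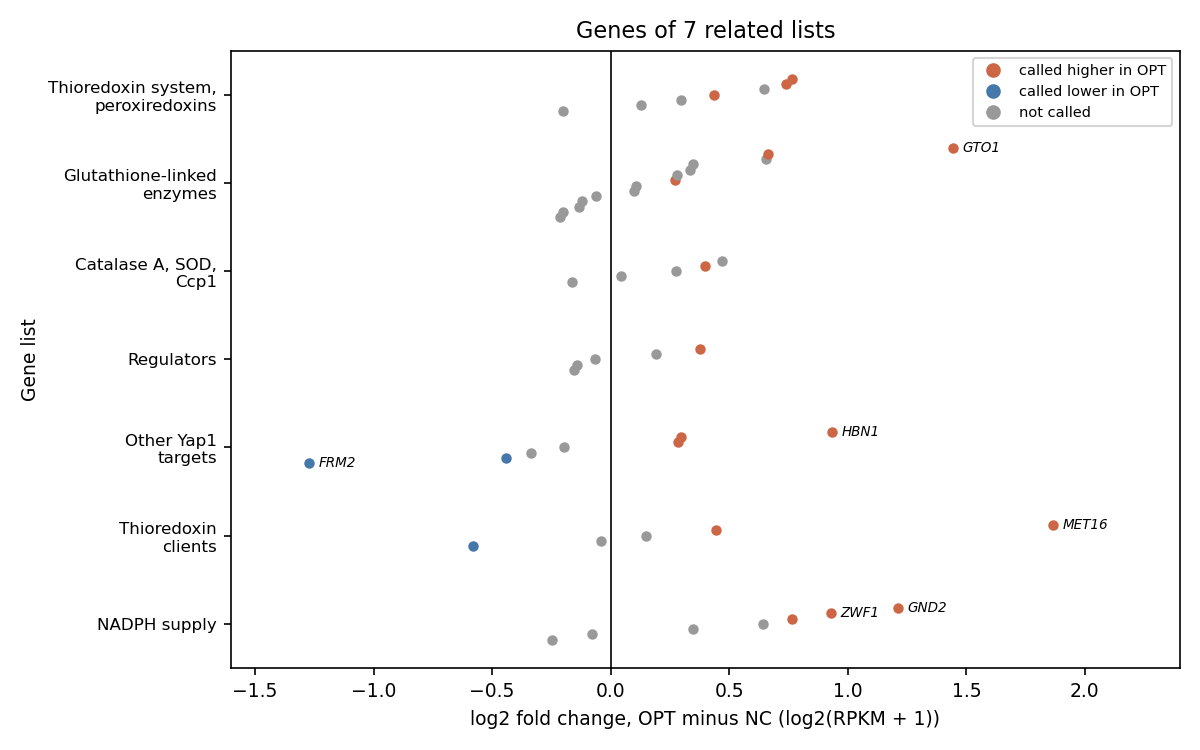
Log2 fold change, OPT minus NC on the log2(RPKM + 1) scale, of the 50 genes of 7 related lists, 1 point per gene, coloured by the call of the fit over all features and named where called and beyond 0.8 in size. Orange points, called higher, number 16, and the 3 blue points, called lower, are FRM2, ATR1 and RNR1.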

How the data were processed

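The authors deposited 1 table of normalized RPKM, per the file headers, with a row per gene, from total RNA libraries made with a TruSeq kit, per the labels' protocols. The submitters' processing notes name CASAVA 1.8.0, Bowtie, TopHat and build R64. Read counting, strand use, the treatment of multiply mapping reads and the normalization are not given in the sources used here. Libraries add up to 999285 to 999421, so a rise of abundant transcripts lowers the others.

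Blank lines (3) and 1 repeated, shifted row were left out. Of 6347 features, 5992 matched RefSeq's R64 genes, which gave the coordinates. Reads were estimated from the step between low values times RefSeq length, where 98.0 to 100.0% lay within 0.15 of a whole read, and used to describe depth only. Log2(RPKM + 1) was fitted with limma 3.58.1 in R 4.3.3 (eBayes with a trend, two-sided, no covariates) for features averaging 1 RPKM or more. P-values were Benjamini-Hochberg adjusted over all features, with a call under 0.05, and the cdt-1 rows were not counted. The procedure was also run on simulated data drawn with the same spread in both strains. The libraries here had unequal spread, so that run cannot show how the calls behave under it. Tables and figures used Python 3.11.15, numpy 2.4.6, pandas 2.3.3 and matplotlib 3.10.9.

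Members and lists were chosen with earlier results of these data known. Named were the 10 genes, YAP1 and up to 3 called genes of each list, by size of change. Planned descriptions of promoter motifs and protein identity were not made. Alternatives changed the pseudocount, filter, scaling, variance prior, weights, features or libraries.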

Additional observations from a re-analysis of the deposited data

How the results depend on the processing

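GRX8 kept its direction and call in all 14 alternative fits. No paired analysis was possible because the replicate numbers used here only follow the order of the samples, and no label ties a sample of NC to one of OPT. The 322 higher and 823 lower calls over all features became 491 lower with equal library medians and 1262 lower with arrayWeights, and 134 to 450 higher and 227 to 1503 lower without single libraries. Of the 10 genes, 1 to 2 were called higher without single libraries (AHP1 being added without NC replicate 2) and 0 to 2 lower. With no filter, a filter of 10 RPKM, a common prior variance, arrayWeights or protein-coding features only, 2 were lower, TRR1 with TSA1. Not called and turned in sign were TSA2 (0.012 with quantile normalization, 0.049 with equal medians, -0.11 to 0.11 without single libraries, above 0 without NC or OPT replicate 2), GRX1 (-0.0013 with quantile normalization), GRX2 (-0.0087 with arrayWeights, -0.067 to 0.28 without single libraries, below 0 without NC replicate 1) and CTT1 (-0.34 to 0.49, below 0 without NC replicate 1). Over the 50 list genes, 6 to 19 were higher and 1 to 5 lower without single libraries, and 6 were lower with arrayWeights. ALD6, not called, was 0.016 with arrayWeights and -0.64 to 0.26 without single libraries. With equal medians, 5 rather than 3 genes were higher in each of the lists of the thioredoxin system and of glutathione-linked enzymes. With arrayWeights 1 glutathione-linked gene and 4 rather than 2 Yap1 targets were lower. The catalase and superoxide list had 0 higher with no filter and with a common prior variance, and the thioredoxin clients 0 lower with quantile normalization. Without single libraries the numbers higher were 1 to 5 in the thioredoxin system, 1 to 4 for glutathione-linked genes, 0 to 2 for catalase and superoxide, 0 to 1 for regulators, 1 to 3 for Yap1 targets, 1 to 2 for clients and 2 to 4 for NADPH supply. The numbers lower were 0 to 1 for glutathione-linked genes, 1 to 3 for Yap1 targets, 0 to 1 for clients and 0 in the other lists. The log2 ratio of GRX2 to GRX1 differed by -0.15 to 0.041 between strains without single libraries, turning sign without NC replicate 2 or 3. Causes were not tested. AHP1 and CTT1, with the widest intervals, rest on an estimated 7456 reads or more in each library. RPKM are shares, and no amount per cell can be read from them.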

Other observations

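The 50 genes of the related lists had the same highest NC library as most of the 10 genes above. NC replicate 2 held the highest NC value in 35 of 50 list genes, or 70.0%, against 42.3% of all features tested. NC replicate 3 held the lowest NC value in 30 of the 50, against 49.9% of all features tested. SOD2, the mitochondrial superoxide dismutase, stood at 415, 687 and 404 RPKM in NC and 710, 608 and 709 in OPT, and SOD1, its cytosolic counterpart, at 999, 1262 and 901 in NC and 1335, 1168 and 1293 in OPT. Neither passed the test (limma adjusted p = 0.162 and 0.201), although SOD2 passed without NC replicate 2 (adjusted p = 0.0126). In both, NC replicate 2 lay within the OPT range and the other NC libraries below it. SOD1 and SOD2 were chosen after their values were seen. ALD6, a cytosolic aldehyde dehydrogenase that makes NADPH, had another order, at 178, 264 and 627 RPKM in NC replicates 1 to 3, as CTT1 had, and at 255, 233 and 297 in OPT (adjusted p = 0.719). The sign of its difference turned without NC replicate 3.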
